A study of Mus musculus with 3 samples.

Results

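Basement membranes are thin sheets of matrix that surround every muscle fibre and enclose the satellite cell, the resident stem cell of skeletal muscle, against the fibre. They are built from laminin and type IV collagen networks, joined by nidogens and by the heparan sulfate proteoglycans perlecan and agrin, and they are held to the cell by receptors such as dystroglycan and by cell-surface proteoglycans. Outside them lies an interstitial matrix of filamentous and fibril-associated collagens, leucine-rich proteoglycans and elastic fibres, which lysyl oxidases cross-link and which depends on prolyl and lysyl hydroxylases for its collagen chains. The 44 mouse genes described here code for these proteins and enzymes. They were listed by name for the protein they make, and all 44 were found in the GENCODE M1 annotation, which gives gene models for the mm9 mouse genome and holds 22380 protein-coding genes.

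The measurement was ChIRP-seq (chromatin isolation by RNA purification with sequencing) for PAM, also called PAM-1, a super-enhancer RNA. In ChIRP, biotin-tagged DNA oligonucleotides complementary to an RNA are hybridised to cross-linked, sheared chromatin, and the DNA recovered with them is sequenced. The cells were ASCs, satellite cells sorted from hindlimb muscle of Tg:Pax7-nGFP mice, in which a nuclear fluorescent reporter marks Pax7-expressing cells, and then cultured. The age and number of the mice were not given in the labels, no further treatment was applied, and the dishes were coated with poly-D-lysine and Matrigel, itself a basement membrane preparation. The probes were split into an odd and an even pool so that the same chromatin could be recovered with separate oligonucleotides. For each pool 10000000 cells were fixed with 1% glutaraldehyde for 10 min, and 100 pmol of probe was hybridised at 37 °C for 4 h. Each pool was sequenced as 1 library, which leaves these values without an error between replicates, and the input library was not used here.

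The odd-pool list holds 2112 regions of 254 bp and the even-pool list 345 regions of 248 bp. Each region carries a score, a whole number with a lowest value of 4, whose unit is not named in the sources used here. The median score was 6 in the odd list and 5 in the even list, and scores were compared only within a list. A region was assigned to a gene when it overlapped the gene's annotated span by at least 1 bp. The lists carry no strand, no read counts and no depth, and they do not measure which of these genes ASCs transcribe. The annotated PAM gene itself, Gm12603 on chromosome 4 from 88696212 to 88730518, held 0 odd-pool and 0 even-pool regions.

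The probes are shown because they are what selected the DNA. There were 6 designed oligonucleotides of 20 nt, and which of them made up each pool was not given beside the sequences. They are given 5′ to 3′, and in probes 2 and 3 the capitals mark the longest stretch found exactly in a region of these matrix genes.
Probe 1: gccagaaagaatggatgact
Probe 2: GCATTTTCAGTGggatcaca
Probe 3: acctgccaTCTGCTATCAAa
Probe 4: tcttcacaaaccctcatgat
Probe 5: acaagtacttcagctccatg
Probe 6: gttctgatatgtaagctcct
The stretch in probe 2, its bases 1 to 12, occurred in the last-exon odd-pool region of Nid2, and the stretch in probe 3, its bases 9 to 19, occurred in an even-pool region of Bgn. Among the 45 odd-pool regions in the matrix genes the longest exact match to any probe, on either strand, ran from 6 to 12 nt with a median of 8 nt. Over the whole odd list it ran from 4 to 13 nt with a median of 7 nt. A match of at least 12 nt was present in 1 of 45 regions (2.22%), against 5 of 2112 (0.237%) in the whole list. The 9 even-pool regions had matches of 7 to 11 nt, with a median of 8 nt, the same median as the whole even list. None of these regions therefore held a full probe sequence.

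Of the 44 genes, 22 held an odd-pool region (50.0%), against 1445 of all 22380 protein-coding genes (6.46%). An even-pool region was present in 6 of 44 (13.6%), against 223 genes (0.996%). Regions of both pools were present in 4 genes (9.09%), against 0.697% of all protein-coding genes, and in 3 of those genes a region of one pool overlapped a region of the other (6.82%, against 0.469%). The genes with both pools were Col4a2, Nid1, Bgn and Gpc1. A further 18 genes held odd-pool regions alone, 2 held even-pool regions alone, and 20 held none (45.5%). At least 2 odd-pool regions lay in 14 genes (31.8%), against 1.26% of all protein-coding genes. The matrix genes together held 45 odd-pool regions, 2.13% of that list, and 9 even-pool regions, 2.61% of that list. The list was drawn up with earlier results of these data in view, so it is not independent of these shares, and no test was run on them.

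**Figure D1:**
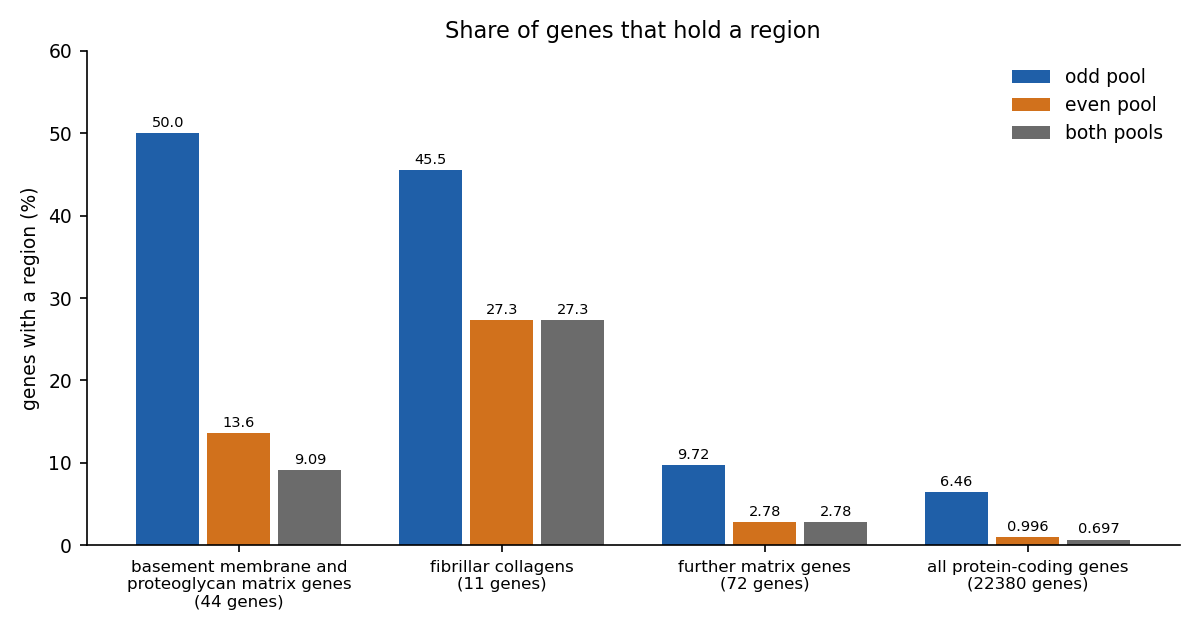
Share of genes (%, vertical axis) that hold a region of the odd pool, the even pool or both, for the 44 matrix genes, 11 fibrillar collagens, 72 further matrix genes and all 22380 protein-coding genes. The 44 genes stand at 50.0%, 13.6% and 9.09%, and all protein-coding genes at 6.46%, 0.996% and 0.697%. There is 1 library per pool and no error bar. The matrix gene lists were drawn up with earlier results of these data known, so differences between them are not independent of these data.

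Transcript length was also compared, while regions were assigned by the gene span, whose length was not compared. The median spliced length of the 44 reference transcripts, in each gene the protein-coding transcript with the longest coding sequence, was 5140 nt (range 1758 to 14176), against 2228 nt over all protein-coding genes. Per 10 kb of exon sequence the matrix genes held 1.77 odd-pool and 0.355 even-pool regions, and all protein-coding genes held 0.305 and 0.0413. These counts take every region in the gene span, on an exon or not. Of the odd-pool midpoints, 43 of 45 in the matrix genes and 1526 of 1875 over all protein-coding genes lay on an exon. Among the 22 matrix genes under 5140 nt, 14 held an odd-pool region (63.6%), against 6.21% of the 19942 protein-coding genes under that length. Among the 22 at or over that length, 8 did (36.4%), against 8.45% of 2438. The sets under 5140 nt were not matched in length, with a median of 3627 nt in the matrix genes and 1987 nt in all protein-coding genes. At or over it the medians were 6536 and 6577.5 nt. The 24 genes with a region of either pool had a median length of 4441.5 nt and the 20 without had 5704 nt. The part of transcript length in the shares was not tested.

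Region sequence was also compared, here with the whole lists, which include regions outside protein-coding genes. The median 31-base word of each region occurred once in mm9 for all 45 odd-pool and all 9 even-pool regions, whereas 349 odd-pool regions (16.5%) and 67 even-pool regions (19.4%) of the whole lists had a median word with at least 2 copies. Median GC content was 52.4% in the odd-pool regions of the matrix genes (range 32.3 to 66.5), against 49.6% in the whole list, and 48.4% in the even-pool regions, against 48.0%.

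Type IV collagen is the network-forming collagen of every basement membrane, and its α1 and α2 chains are made from Col4a1 and Col4a2, which lie head to head on chromosome 8. Both genes had an odd-pool region in the 3′ UTR of the last exon. In Col4a1 it scored 6, at chr8:11198718-11198971 in exon 52 of 52, 421 nt from the transcript's 3′ end, and it also overlapped Gm15418, a processed transcript on the opposite strand. In Col4a2 the odd-pool region scored 9, at chr8:11448442-11448695 in exon 48 of 48, and an even-pool region with a score of 4, the lowest in its list, at chr8:11448299-11448546, shared 105 bp with it. Col8a1, a short-chain network collagen, had no region. The 3 genes of the beaded filament collagen, type VI, which links the basement membrane to the interstitial matrix, each held 2 odd-pool regions and no even-pool region. Over all protein-coding genes 1.26% held at least 2 odd-pool regions. In Col6a1 both were in exon 35 of 35, with a score of 11 in coding sequence and 8 in the 3′ UTR, their midpoints 614 bp apart. In Col6a2 they scored 6 in coding exon 26 and 9 in the coding part of exon 28 of 28. In Col6a3, which makes the largest of these chains, they scored 4 in coding exon 8 of 43 and 5 in the 3′ UTR. Regions thus lay near the 3′ end of all 3 type VI genes, and in Col6a3 also 5121 nt upstream of it.

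Fibril-associated collagens sit on the surface of collagen fibrils. Of Col12a1, Col14a1 and Col16a1, only Col12a1 held a region, from the even pool with a score of 4, in the 3′ UTR of exon 66 of 66 at chr9:79447917-79448164. The multiplexins Col15a1 and Col18a1, basement membrane collagens that carry heparan or chondroitin sulfate chains, held none.

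The laminins, heterotrimers that begin basement membrane assembly and bind integrins and dystroglycan, held no region of either pool. This covered all 6 chains on the list, the α chains Lama2, the main one around muscle fibres, Lama4 and Lama5, the β chains Lamb1 and Lamb2, and the γ chain Lamc1. Their exons add up to 46174 bases, against 10930 bases in the 2 nidogen genes. Their last exons make up 3.44 to 36.8% of the spliced length. Against these 0 odd-pool regions in 6 laminin genes stood 8 in the 2 nidogen genes, a difference that was not tested. All 6 laminin transcripts are longer than 5140 nt, and 8.45% of protein-coding genes at or over that length held an odd-pool region. With 6 genes, a count of 0 does not set the laminins apart from other long genes.

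Nidogens bridge laminin and type IV collagen. Nid1 held more regions than any other of the 44 genes, 6 from the odd pool and 1 from the even pool, on the plus strand of chromosome 13. Its odd-pool scores were, in 5′ to 3′ order, 5 in exon 2, 6 in exon 4, 4 in exon 8, 4 in exon 13, and 18 and 14 in the 3′ UTR of exon 20 of 20. The 4 coding regions were spread over the transcript, 5594, 4956, 4121 and 3310 nt from its 3′ end, and all scored at or below the list's median of 6. The pair in the 3′ UTR lay 1506 and 781 nt from the end. The even-pool region scored 6, at chr13:13603848-13604095, and shared 41 bp with the odd-pool region that scored 14, at chr13:13603635-13603888. In Nid2, whose product is the second nidogen, an odd-pool region scored 6 on coding exon 3 of 21 at chr14:20582878-20583131, and another scored 7 in the 3′ UTR of exon 21 at chr14:20630404-20630657, where 2700060E02Rik, a protein-coding gene on the opposite strand, overlaps it. Nid2 held no even-pool region.

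The coding regions of Nid1 are printed to show the genome sequence under each region and where the listed region begins and ends against its exon. The bases are those of the reference genome over each listed interval, not reads. Every odd-pool region has the same width of 254 bp, so its edges need not be those of the recovered DNA. Capitals are exon bases of the reference transcript and lower case are intron bases, on the plus strand of mm9, and the regions were chosen as the coding regions of genes in which both pools had a region.
Nid1 exon 2, chr13:13555989-13556242: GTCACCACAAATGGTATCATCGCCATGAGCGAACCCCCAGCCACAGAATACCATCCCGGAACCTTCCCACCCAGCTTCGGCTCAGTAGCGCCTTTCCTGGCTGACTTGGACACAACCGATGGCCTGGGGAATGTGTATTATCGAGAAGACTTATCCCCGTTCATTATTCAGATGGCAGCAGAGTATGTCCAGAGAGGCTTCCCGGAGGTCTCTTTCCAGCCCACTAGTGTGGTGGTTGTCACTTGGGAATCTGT
Nid1 exon 4, chr13:13560609-13560862: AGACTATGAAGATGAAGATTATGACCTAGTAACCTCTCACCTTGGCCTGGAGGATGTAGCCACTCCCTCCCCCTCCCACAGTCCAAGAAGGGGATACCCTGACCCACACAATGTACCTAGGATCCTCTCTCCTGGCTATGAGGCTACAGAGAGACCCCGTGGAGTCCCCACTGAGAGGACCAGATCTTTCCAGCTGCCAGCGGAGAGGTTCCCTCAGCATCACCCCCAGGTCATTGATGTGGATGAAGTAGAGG
Nid1 exon 8, chr13:13574251-13574504: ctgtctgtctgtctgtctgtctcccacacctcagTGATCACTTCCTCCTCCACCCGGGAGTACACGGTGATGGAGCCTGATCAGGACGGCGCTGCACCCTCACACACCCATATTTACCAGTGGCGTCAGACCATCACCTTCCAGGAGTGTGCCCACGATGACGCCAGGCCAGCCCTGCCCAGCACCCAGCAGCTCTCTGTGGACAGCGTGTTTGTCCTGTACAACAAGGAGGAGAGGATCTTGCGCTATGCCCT
Nid1 exon 13, chr13:13591814-13592067: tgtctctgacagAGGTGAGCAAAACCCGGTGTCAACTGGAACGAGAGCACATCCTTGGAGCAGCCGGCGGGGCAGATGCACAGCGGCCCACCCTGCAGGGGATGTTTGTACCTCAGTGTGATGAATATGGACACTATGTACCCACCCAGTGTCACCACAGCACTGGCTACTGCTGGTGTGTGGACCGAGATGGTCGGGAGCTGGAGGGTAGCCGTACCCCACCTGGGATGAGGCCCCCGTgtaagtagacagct
The regions in exons 2 and 4 consist of exon bases alone. The region in exon 8 starts with 34 intron bases that end in the ag of the splice acceptor and then holds 220 exon bases. The region at exon 13 holds the whole exon of 228 bp, with 12 intron bases before it and 14 after it that begin with the gt of the splice donor. The 4 regions of 254 bp were separated by 4620, 13642 and 17563 bp between midpoints in the genome, so the intervals between them are mostly intron. No region was called in those introns, nor in the other exons that lie in these intervals.

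Perlecan, from Hspg2, and agrin, from Agrn, are the large heparan sulfate proteoglycans of the basement membrane, and agrin also organises acetylcholine receptors at the neuromuscular junction. Hspg2 held odd-pool regions with a score of 7 in coding exon 77 of 97, at chr4:137113062-137113315, and 11 in the 3′ UTR of exon 97, at chr4:137125576-137125829. Agrn held none. Dag1, which codes for dystroglycan, the receptor that ties laminin to the dystrophin complex, held an odd-pool region with a score of 4 in the 5′ UTR on exon 3 of 4. A second one, with a score of 9 at chr9:108108137-108108390, straddled the annotated 3′ end of Dag1, with 102 of its 254 bases on the last exon and its midpoint beyond the gene. None of these 3 genes held an even-pool region.

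The small leucine-rich proteoglycans bind collagen and growth factors such as TGF-β. Biglycan, from Bgn on chromosome X, had the highest score of any odd-pool region in the 44 genes, 41, in the 3′ UTR of exon 8 of 8 at chrX:70740597-70740850. Only 22 of the 2112 odd-pool regions scored 41 or more, this one included. The even pool had its highest score among these genes there too, 15 at chrX:70740328-70740575, with 23 of 345 even-pool regions scoring at least as high, and a second even-pool region with a score of 9 at chrX:70740959-70741206. These even-pool regions flanked the odd-pool one without overlapping it, with gaps of 21 bp and 108 bp. A further odd-pool region, with a score of 5, covered the whole of the first exon, 119 bp of 5′ UTR. Decorin, from Dcn on chromosome 10, had 4 odd-pool regions and no even-pool region, all with the midpoint in coding sequence, with scores of 9 in exon 2, 4 in exon 3, 5 in exon 4 and 12 in exon 8 of 8. The other 2 genes of this class on the list, Lum for lumican and Fmod for fibromodulin, held none. Thus 6 odd-pool and 2 even-pool regions fell on 2 of the 4 listed genes. Ogn, of the same class, is not among the 44 genes and is given below with the further matrix genes.

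Regions on 2 short exons of Dcn are printed because both exons lie wholly inside their region. They were chosen after their values were seen, and capitals again mark exon bases on the plus strand of mm9.
Dcn exon 3, chr10:96957551-96957804: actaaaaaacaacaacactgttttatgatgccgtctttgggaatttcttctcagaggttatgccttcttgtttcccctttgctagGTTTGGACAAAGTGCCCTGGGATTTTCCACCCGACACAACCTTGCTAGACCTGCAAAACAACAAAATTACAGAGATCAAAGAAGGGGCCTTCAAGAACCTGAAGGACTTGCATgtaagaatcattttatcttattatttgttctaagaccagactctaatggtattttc
Dcn exon 4, chr10:96969107-96969360: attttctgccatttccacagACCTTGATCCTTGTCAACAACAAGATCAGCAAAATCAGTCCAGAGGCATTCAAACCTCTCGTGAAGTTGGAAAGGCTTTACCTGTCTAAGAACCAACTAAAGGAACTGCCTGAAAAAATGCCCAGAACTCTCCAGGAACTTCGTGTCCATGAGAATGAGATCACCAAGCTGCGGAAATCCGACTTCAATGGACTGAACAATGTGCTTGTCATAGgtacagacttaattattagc
Exon 3 has 113 bp, with 85 intron bases before it and 56 after it in the region. Exon 4 has 214 bp, with 20 intron bases on either side, so the exon's centre and the region's centre were the same, 0.0 bp apart. Both exons are bounded by ag and gt.

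Versican, the hyaluronan-binding chondroitin sulfate proteoglycan from Vcan, held 1 odd-pool region with a score of 6, in the 3′ UTR of exon 15 of 15 at chr13:89796321-89796574. Of the 7 elastic fibre genes on the list, 2 held odd-pool regions (28.6%, against 6.46% of all protein-coding genes) and none held an even-pool region. Fibrillin-1, from Fbn1, the scaffold of the microfibril, had 3, with a score of 5 on coding exon 57 of 65 and scores of 12 and 9 in the 3′ UTR of exon 65, 884 and 109 nt from the 3′ end. Fbln2, for fibulin-2, had 1 with a score of 8, in the 3′ UTR of exon 18 of 18. Eln, for elastin itself, had no region, nor did Fbn2, Fbln1, Fbln5 or Emilin1, which codes for an elastin-associated glycoprotein.

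Of the 7 listed genes for enzymes that cross-link or modify the matrix, 6 held regions. The odd pool had regions in 5 (71.4%, against 6.46% of all protein-coding genes) and the even pool in P4ha1 (14.3%, against 0.996%). Lysyl oxidase, from Lox, which starts the covalent cross-links of collagen and elastin, had odd-pool scores of 12, 11 and 9, all in the 3′ UTR of its last exon of 3165 nt. Their midpoints lay 2182, 1425 and 749 nt from the 3′ end, with 757 and 676 bp between neighbours. Of its relatives, Loxl1 had a score of 5 in coding exon 1 of 7 and 4 in the 3′ UTR, and Loxl2 had a score of 4 in intron 1 at chr14:70014748-70015001, where a lincRNA on the opposite strand, Gm16867, is also annotated. This was the only odd-pool region of the 45 with its midpoint in an intron. P4hb, for the β subunit of prolyl 4-hydroxylase, which is also protein disulfide isomerase, had a score of 18 in the 3′ UTR of exon 11 of 11, and 121 odd-pool regions scored at least as high. P4ha1, for the α subunit of the same enzyme, had 2 even-pool regions with scores of 4, one in the 3′ UTR of exon 15 of 15 and one in intron 9 of the reference transcript, on a coding exon of another annotated transcript. The genes of both subunits thus held regions of different pools. Of the lysyl hydroxylases, Plod2 had a score of 6 in the 3′ UTR of exon 20 of 20, and Plod1 had no region.

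All 3 cell-surface heparan sulfate proteoglycans on the list held odd-pool regions, against 6.46% of all protein-coding genes, with the highest scores in Gpc1. The list does not hold the whole class, and Sdc2, another syndecan, is given below with the further matrix genes. Glypican-1, a lipid-anchored proteoglycan from Gpc1 on chromosome 1, had 2 odd-pool regions that scored 19 and 21, with 107 and 89 odd-pool regions of the list scoring at least as high, and 2 even-pool regions that scored 8 and 6. All 4 were in the 3′ UTR of exon 9 of 9. The odd-pool region at chr1:94755107-94755360 shared 121 bp with the even-pool region at chr1:94755240-94755487, and that at chr1:94756332-94756585 shared 206 bp with the one at chr1:94756380-94756627. Gpc1 was the only one of the 44 genes in which separate regions of both pools overlapped at 2 places. Syndecan-1, a transmembrane proteoglycan from Sdc1, had odd-pool scores of 6 in coding exon 3 of 5 and of 8 and 8 in the 3′ UTR of exon 5. Syndecan-4, from Sdc4, a marker of satellite cells, had a score of 11 in the 3′ UTR of exon 5 of 5 at chr2:164250913-164251166.

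**Figure D2:**
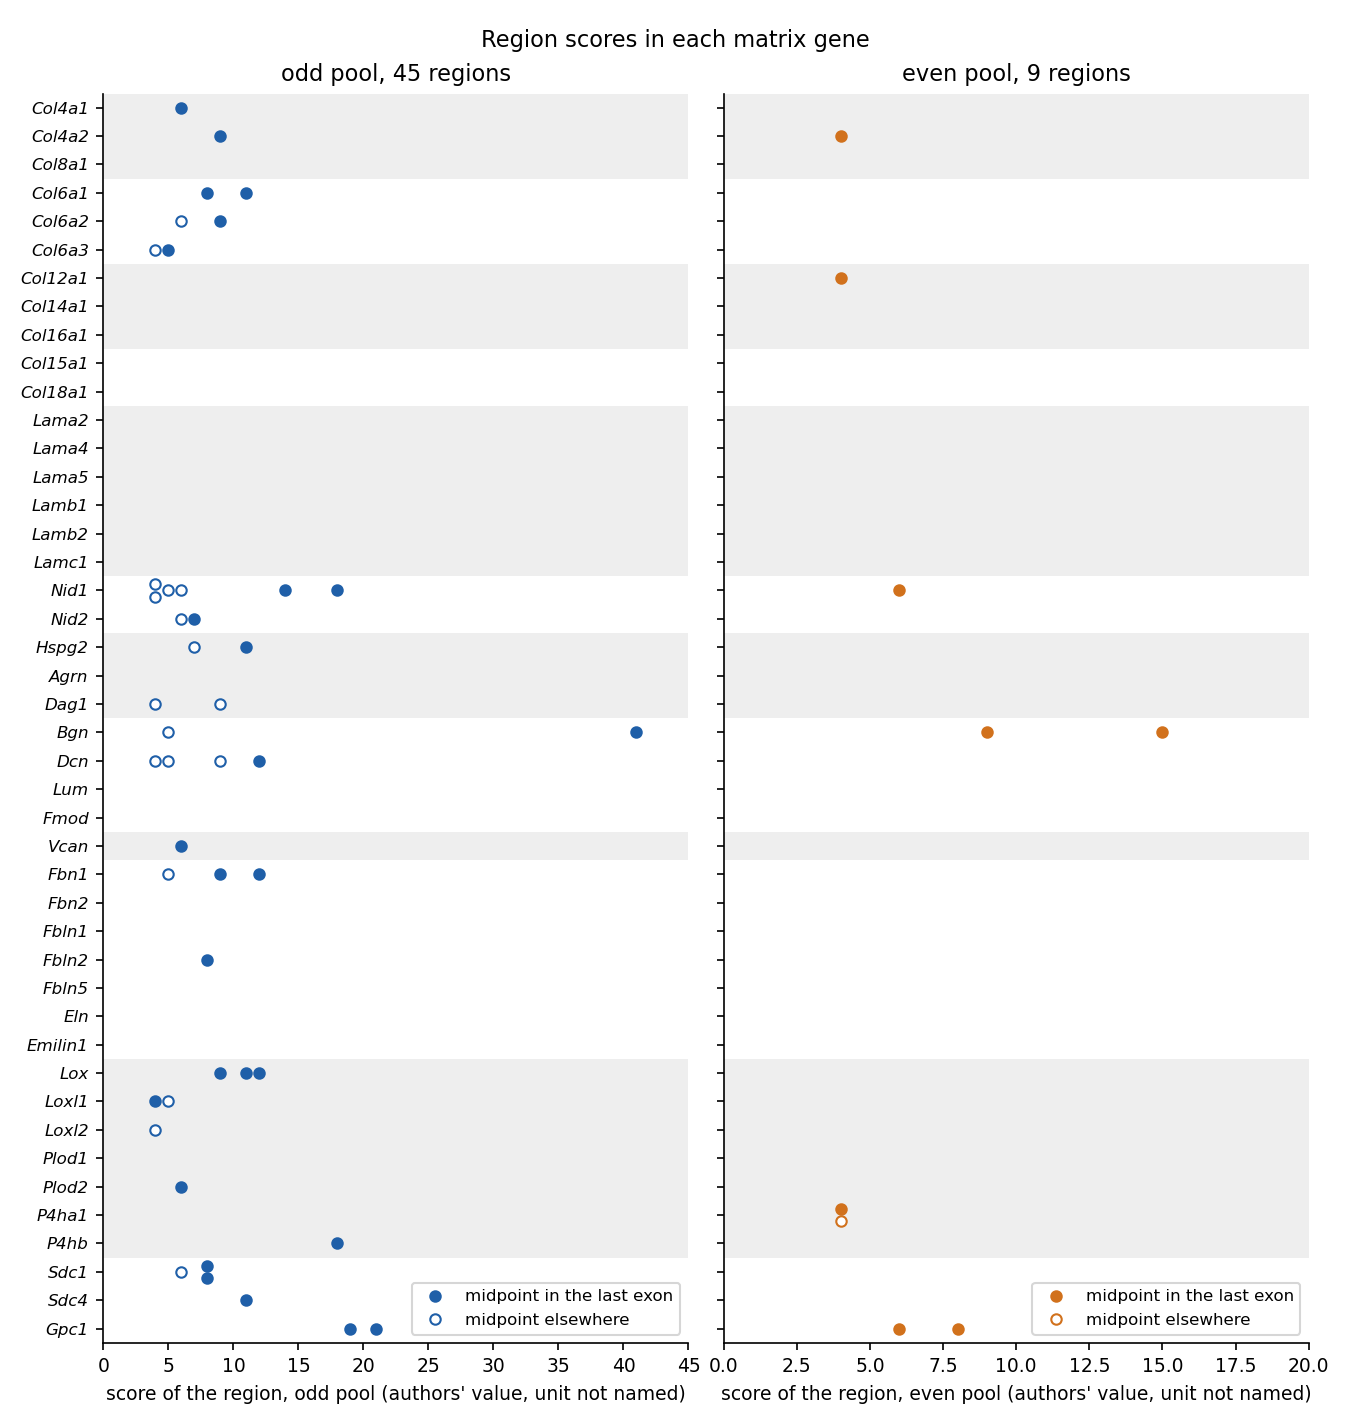
Score of each region (horizontal axis, the authors' value, unit not named) in each of the 44 genes (vertical axis, shaded by class in the order of the text), with 45 odd-pool regions at left and 9 even-pool regions at right, on separate scales. Filled points have their midpoint in the last exon of the reference transcript and open points elsewhere; equal scores in a gene are drawn apart, the highest is 41 in Bgn, and the 6 laminin genes have no point.

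Most regions in these genes were exonic. By the position of the midpoint on the reference transcript, 43 of 45 odd-pool regions lay on an exon (95.6%, 95% Wilson interval 85.2 to 98.8), against 1526 of 1875 (81.4%) over all protein-coding genes. Here the Wilson interval covers counting error only, and regions in 1 gene are not independent of each other. Coding sequence held 17 (37.8%), the 3′ UTR 24 (53.3%), the 5′ UTR 2 (4.44%) and introns 1 (2.22%), against 32.3%, 47.4%, 1.71% and 13.2% over all protein-coding genes. Few regions lay at start sites, with 2 of 45 midpoints within 1000 bp of the reference transcript's start (4.44%), in Bgn and Loxl1, against 6.35% over all protein-coding genes. The last exon held 27 of 45 (60.0%, 45.5 to 73.0), against 57.1%, and the intervals of the members' shares for coding sequence, both UTRs and the last exon all contain the value over all protein-coding genes. The intron share rests on 1 of 45 regions in the matrix genes, with an interval of 0.393 to 11.6%, and its difference from 13.2% was not tested. A region that overlaps several genes was counted once in each of them. With regions in 1 annotated gene only, the exon share was 97.6% in the matrix genes and 86.3% over all protein-coding genes.

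Of the even-pool regions, 8 of 9 lay in the last exon, all in the 3′ UTR (88.9%, 56.5 to 98.0), against 48.0% of even-pool regions in all protein-coding genes for the last exon and 39.0% for the 3′ UTR. The ninth was the one in P4ha1 on an exon of another transcript. Along the spliced transcript, the odd-pool midpoints lay a median of 1288 nt from the 3′ end (range 109 to 5594), against 882.5 nt over all protein-coding genes, and 19 of 43 (44.2%) were within 1000 nt, against 54.5%. The even-pool midpoints lay a median of 843 nt from it, against 733 nt. The last exon made up on average 37.5% of the spliced length of the matrix genes behind these odd-pool regions and held 62.8% of the midpoints on exons, against 47.3% and 70.1% over all protein-coding genes.

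**Figure D3:**
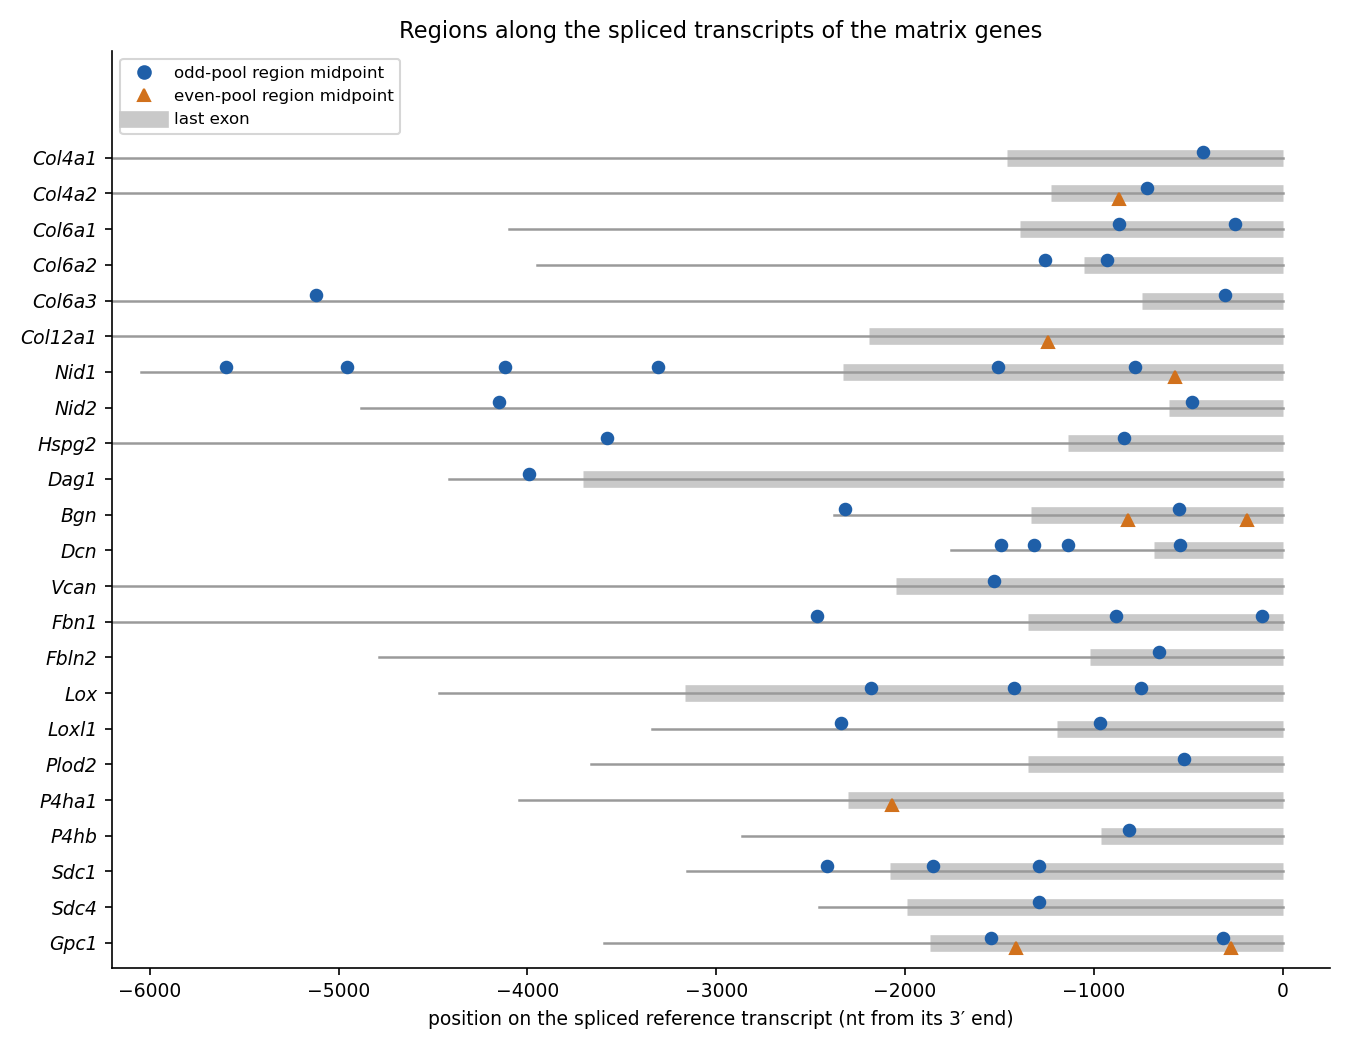
Midpoints of the 43 odd-pool (circles) and 8 even-pool (triangles) regions on exons of the reference transcript, along the spliced transcript of the 23 genes that have one (grey line, thick grey bar for the last exon). The horizontal axis is the distance in nt from the 3′ end and stops short of the 5′ end of the longest transcripts without hiding a region; Nid1 has regions out to 5594 nt, and regions in introns or beyond the gene are not drawn.

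Higher scores lay in last exons. The 27 odd-pool regions with a last-exon midpoint scored 4 to 41 with a median of 9, and the 18 elsewhere scored 4 to 9 with a median of 5. Over all protein-coding genes the medians were 6 and 5, a smaller gap than in the matrix genes, and the difference between the gaps was not tested. Of the 25 regions that scored above the list's median of 6, 22 were in the last exon (88.0%), against 62.3% over all protein-coding genes. Of the 20 that scored 6 or less, 5 were (25.0%), against 53.5%. The 3 higher-scoring regions outside last exons were those on Dcn exon 2, on Hspg2 exon 77 and across the 3′ end of Dag1. Within Nid1, Nid2, Hspg2, Bgn, Dcn, Fbn1, Sdc1, Col6a2 and Col6a3 every last-exon region scored higher than every other one. In Loxl1 the exon 1 region scored 5 and the last-exon region 4. The scores were as close in Nid2, with 7 and 6, and in Col6a3, with 5 and 4. The order within genes is not given for all protein-coding genes and was not tested. The median odd-pool score was 8 in the matrix genes, against 6 over all protein-coding genes, and 7 of 45 had the lowest score of 4. For the even pool the medians were 6 and 5, and 4 of 9 scored 4.

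Regions were also set against the edges of their exons. A region was placed on an exon by its midpoint, so the shortest exons lie inside their region, near its centre, by construction. The shares of whole exons and the distances between centres given here are therefore fixed in part by that rule and by the common width of 254 bp. This holds also over all protein-coding genes. Of the 43 odd-pool regions with an exonic midpoint, 29 lay wholly within exons and 14 reached beyond one. There were 14 odd-pool regions on internal exons, of which 7 were on exons shorter than 254 bp. In 5 of these 7 the whole exon was inside the region (71.4%), against 204 of 244 (83.6%) over all protein-coding genes, and the centres of exon and region differed by a median of 6.5 bp, against 8.0 bp. These were Dcn exons 3 and 4, Nid1 exon 13, Nid2 exon 3 with 233 bp and Fbn1 exon 57 with 207 bp. Of the 7 regions on longer internal exons, those on Nid1 exons 2 and 4, Col6a2 exon 26 and Sdc1 exon 3 lay wholly within the exon, and those on Hspg2 exon 77, Dag1 exon 3 and Col6a3 exon 8 overran one edge.

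**Figure D4:**
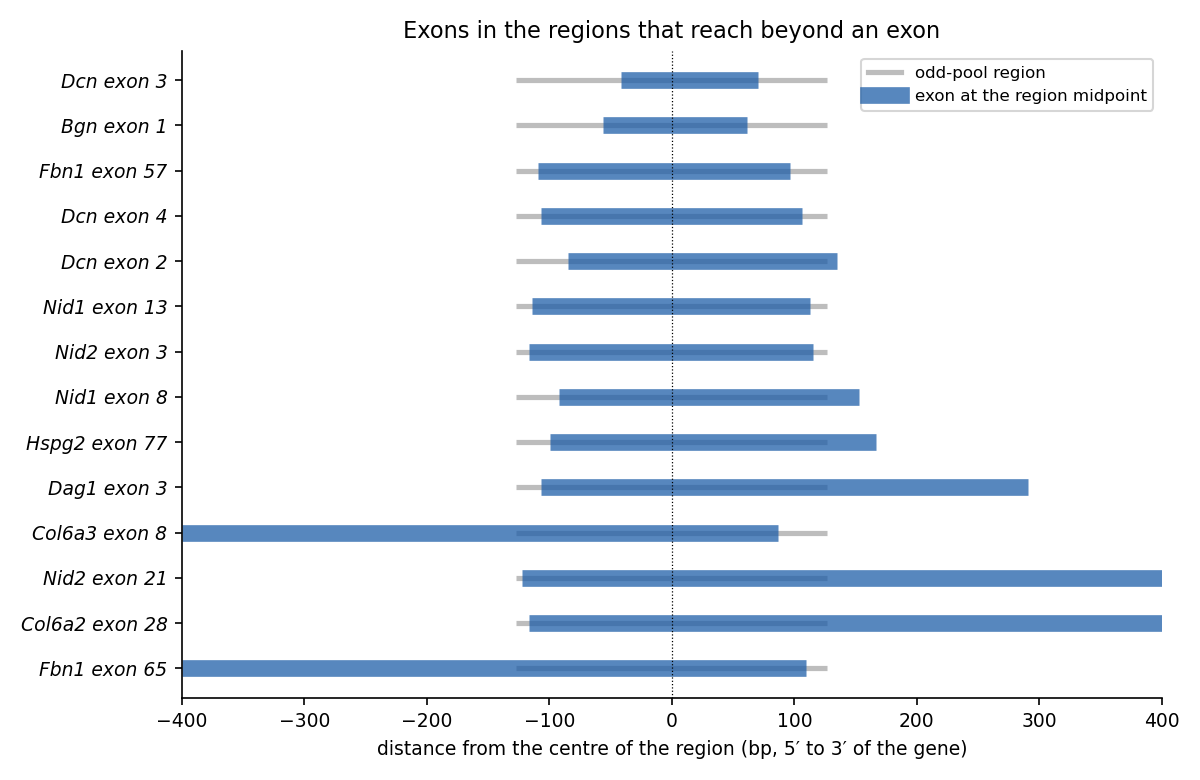
The 14 odd-pool regions that reach beyond an exon (thin grey line, 254 bp) and the exon at their midpoint (blue bar), placed by distance in bp from the region's centre in the 5′ to 3′ direction of the gene, with longer exons cut at the edge of the plot. The upper exons are short and near the centre, from 113 bp in Dcn exon 3 upward, and the exons of Bgn, Fbn1, Dcn, Nid1 and Nid2 between 113 and 233 bp lie wholly inside their regions, except Dcn exon 2.

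Both pools overlapped at 4 places in 3 genes, Col4a2, Nid1 and Gpc1 with its pair, and all 4 were in a last exon. As a share of regions this was 4 of 45 odd-pool regions (8.89%), against 6.56% over all protein-coding genes, and 4 of 9 even-pool regions (44.4%, 18.9 to 73.3), against 48.4%. In Bgn, the gene with the highest scores in both pools, the pools had no shared base.

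Other matrix genes were counted for reference. The 72 further matrix genes include other collagens, proteoglycans, glycoproteins and matrix enzymes. An odd-pool region lay in 7 (9.72%, against 6.46% of all protein-coding genes) and an even-pool region in 2 (2.78%, against 0.996%). They held 0.433 odd-pool regions per 10 kb of exon, against 0.305. Those with both pools were Serpinh1, the collagen chaperone, with odd-pool scores of 18 and 17 and even-pool scores of 7 and 5, and Ogn, a small leucine-rich proteoglycan whose regions also lie within Cenpp, with odd-pool scores of 11 and 8 and an even-pool score of 7. Next by odd-pool score were Sdc2, a syndecan with scores of 7, 5, 11 and 10, Ltbp1 with 8 and Ltbp3 with 6, both latent TGF-β binding proteins, and Ppib, a prolyl isomerase of the collagen-folding machinery, also reached 6. The remaining one, Col4a5, a type IV collagen chain, scored 4. The fibrillar collagens, the main fibres of the interstitial matrix, held an odd-pool region in 5 of 11 genes (45.5%) and an even-pool region in 3 (27.3%), with 2.24 odd-pool regions per 10 kb of exon.

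A region list does not measure expression, so genes that mark cell types were counted as a description. Among satellite cell markers 1 of 5 held a region, Vcam1 with odd-pool scores of 4 and 4, while Pax7, Myf5, Myod1 and Cdh15 held none. Sdc4, described above, also marks these cells, was not among those 5 and held an odd-pool region with a score of 11. Among markers of fibroblasts and fibro-adipogenic cells 2 of 4 did, Pdgfrb with an odd-pool score of 6 and Ly6a with 25 in the odd pool and 7 in the even pool, while Pdgfra and Thy1 held none. None of 4 endothelial, 3 immune or 2 Schwann cell markers held a region. Over all protein-coding genes 6.46% held an odd-pool region, each marker list holds few genes, and no difference between the cell types was tested. The part of other cell types in the recovery of the matrix genes was not tested. On chromosome 4, which carries PAM, lie 5 of the 44 genes, at distances of 41.0 to 66.8 Mb from it, and 1 of them, Hspg2 at 48.3 Mb, held a region, while Col16a1, Col15a1, Plod1 and Agrn held none.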

How the data were processed

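PAM ChIRP-seq libraries of the odd and the even probe pool were analysed, and the input library of the series was not used here. Reads were mapped uniquely to mm9 with Bowtie2 and peaks were called with MACS2 by the authors, as their methods state, and versions, thresholds and the use of the input were not given in the sources used here. What the authors deposited are 2 region lists, one per pool, with a score for every region whose unit is not named. No read counts were given, so the depth behind a region and a score is unknown, and the number of regions in a list can follow depth as well as recovery.

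Starts in the lists were read as counted from 0, and coordinates are printed 1-based. All 2457 regions of both lists lay within the chromosome lengths of the NCBIM37 (mm9) genome. Regions were assigned to GENCODE M1 gene spans by an overlap of at least 1 bp, and positions were read at the midpoint on the protein-coding transcript with the longest coding sequence. Shares of regions are given with 95% Wilson intervals, which cover counting error only. Copies of 31-base words and exact probe matches were counted on both strands, and a region's copy number is the median over its words. Every one of the 44 genes is named, with its regions where it has any. Of the further matrix genes, those with both pools and the next 3 by odd-pool score are named, of which Ltbp3 tied with Ppib and was taken by alphabet, and Ppib and Col4a5 were named in addition after their values were seen. Sequences were printed for the probes and for coding regions of genes with both pools, and the Dcn regions were added later. The genes, the lists and the alternatives were chosen with earlier results of these data known, so shares are set beside those of all protein-coding genes and no test was run. The counting was tested on simulated data. Alternatives were assignment by midpoint, spans extended by 2000 bp, regions above the list's median score, regions in 1 annotated gene only, exons of any transcript and any overlap with an exon. Python 3.11.15, NumPy 2.4.6, SciPy 1.17.1, numba 0.67.0 and matplotlib 3.10.9 were used.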

Additional observations from a re-analysis of the deposited data

How the results depend on the processing

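Of 32 alternative values computed for the shares, counts and positions, 28 stayed within their 95% interval or, for counts, within 1.5 times the reported count, and 4 moved, all with regions kept only above the median score of their list. That setting left 25 of 45 odd-pool and 5 of 9 even-pool regions. It raised the last-exon share of the odd-pool regions from 60.0 to 88.0%, against 57.1 to 62.3% over all protein-coding genes. Their number per 10 kb of exon fell from 1.77 to 0.986, against 0.305 to 0.123. Counts and numbers per 10 kb can only fall when regions are dropped. The share of genes with an odd-pool region ran from 36.4 to 50.0% over the alternatives, against 2.45 to 7.50% of all protein-coding genes, and that with an even-pool region from 6.82 to 13.6%, against 0.371 to 1.15%. With regions in 1 annotated gene only, Col4a1 and Loxl2 lost their region and 20 genes (45.5%) held one from the odd pool. Extending the gene spans by 2000 bp added no region. No paired analysis was possible because there was only 1 library for each pool and no test, and no replicate could be left out. Depth is unknown, so a gene without a region, such as each laminin gene, is one in which none was listed at this depth, and which of the 44 genes these cells transcribe was not measured. The lists carry no strand, so regions in Col4a1, Nid2 and Loxl2 cannot be told apart from those of the genes annotated opposite them.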
